A study of Mus musculus with 27 samples.

Results

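Dural macrophages of Rag1 ko mice that had received IL-17A/F-deficient T cells were compared with dural macrophages of Rag1 ko mice that had received no T cells. The comparison used 8 of the 27 libraries of the series, chosen by their group labels and not by any measured value. There were 2 female libraries (F1 and F2) taken 6.5 weeks after reconstitution with IL-17AF ko T cells, and 6 libraries at steady state without T cells, 4 female (F1 to F4) and 2 male (M1 and M2). For orientation, 5 libraries taken 6.5 weeks after reconstitution with total B6 T cells (4 female and 1 male) were read in the same model. Every mouse in these groups was on the B6 strain, carried the Rag1 ko and was 16 to 19 weeks old, so that none made T or B cells of its own. The labels say neither which markers gated the sort nor whether each library was a separate animal or a pool, so p-values measure the spread between libraries, technical spread included.

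Macrophages of the dura, the outer layer of the meninges, sit at the border of the brain and sample blood and cerebrospinal fluid. Interferon-gamma from T helper 1, CD8 and natural killer cells acts on macrophages and induces guanylate-binding proteins, immunity-related GTPases, chemokines and antigen presentation. Interleukin-17A and F, made by T helper 17 and gamma-delta T cells, act mainly on stromal and epithelial cells through NF-kB and mRNA stabilisation, and so call in neutrophils and monocytes. The question was which changes of the macrophages stay when the transferred T cells lack IL-17A/F.

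The deleted genes were checked first, although the sequenced cells were macrophages and not the donor T cells, so that this check says nothing about the donor genotype. Il17a and Il17f had 0 counts in both libraries with IL-17A/F-deficient T cells, where 3 counts correspond to 0.216 CPM in F1 and 0.39 CPM in F2 (CPM, counts after scaling to library size), and both genes had 0 counts in all 6 libraries without T cells. Il17ra, which encodes the receptor subunit for IL-17A and F, had 1493 and 959 counts with IL-17A/F-deficient T cells and 1098 to 1877 counts without T cells. The macrophage receptor gene Csf1r had 76729 and 38039 counts with IL-17A/F-deficient T cells, against 36067 to 78527 counts without T cells, so this defining marker was present in every library of both groups. The T-cell genes Cd3d, Cd8a and Trbc1 were at 0 in both libraries with IL-17A/F-deficient T cells. Cd3e had 0 counts in F1 and 5 in F2 of that group, against 3 in F3 and 0 in the other 5 libraries without T cells. The summed level of the T-cell list was 224 and 217 CPM there, against 83.6 to 188 CPM without T cells. Most of that sum was Cd4, which averaged 216 CPM with IL-17A/F-deficient T cells and 120 CPM without T cells and did not pass the test (adjusted p = 0.254, edgeR quasi-likelihood test).

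The libraries also differed in their ribosomal protein and stromal RNA. Library totals were 13503664 and 7774492 counts with IL-17A/F-deficient T cells and 7353139 to 17066408 counts without T cells. Ribosomal protein genes summed to 9172 and 9649 CPM with IL-17A/F-deficient T cells. Without T cells they summed to 29942 to 34191 CPM in F1, F2, M1 and M2 (set A) and to 14547 to 14758 CPM in F3 and F4 (set B). The 5 other libraries with such a low sum (set C) came from mice with T-bet ko, IFN-gamma ko or, in 1 library, IL-6Ra/IL-21R ko T cells, at 8196 to 9496 CPM. A stroma list, of which 91 genes were in the table, summed to 8280 and 12900 CPM with IL-17A/F-deficient T cells and to 2410 to 5290 CPM without T cells, against 13200 to 16100 CPM in the 5 other set C libraries and 1910 to 5290 CPM in the 20 libraries outside set C. Both libraries with IL-17A/F-deficient T cells lay in set C and none without T cells did, so within these 8 libraries the set and the T cells cannot be told apart. For that reason stromal genes are set apart below, and for many genes the level in the 5 other set C libraries is given too.

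**Figure D1:**
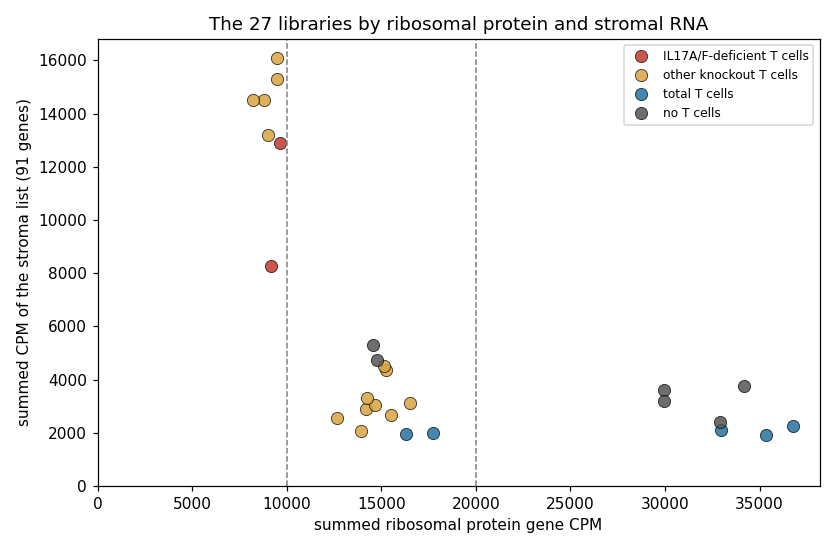
Summed CPM of ribosomal protein genes (x axis) against summed CPM of the stroma list (y axis), 1 point per library, with dashed lines at the limits of 10000 and 20000 CPM between the 3 sets. Both libraries with IL-17A/F-deficient T cells lie left of the lower limit at 8280 and 12900 CPM of stromal RNA, and the 6 libraries without T cells lie right of it at 2410 to 5290 CPM.

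Of 12597 genes tested, 673 (5.34%) were called at an adjusted p under 0.05. With IL-17A/F-deficient T cells 423 genes (3.36%) were higher and 250 (1.98%) were lower than without T cells. The median log2 fold change over all genes was -0.02. Of the 423 higher genes, 14 belonged to the stroma list and 224 followed its sum over the 19 libraries outside the comparison (Pearson r of at least 0.7), which left 185 others. Of the 250 lower genes, 34 encode ribosomal proteins, which left 216. The rule set apart only genes that rose with the stroma sum, so lower genes that ran against it stayed among the 216. There r was -0.92 for Ccr2 and -0.84 for Nfkbia, but -0.19 for Mcm7. The same model called 2660 genes (21.1%) between total T cells and no T cells, and 3143 (25%) between IL-17A/F-deficient and total T cells. No library with total T cells lay in set C, so in the last contrast too the set and the T cells cannot be told apart. With the library set as a term that contrast called 2 genes, a limit on every difference from total T cells given below. Only the group with IL-6Ra/IL-21R ko T cells had libraries in set C (1, male) and outside it (6, in set B). The set C part of that term thus rests on this 1 library, here and wherever the term is used below. The 2 contrasts against no T cells share the same 6 libraries, so their values are given side by side and no overlap is drawn from them. Without F1 of the IL-17A/F-deficient group 21 genes were called, and without F2 only 2 were, so the count rests on having both libraries, whereas leaving out any 1 library without T cells gave 485 to 620.

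Genes known to be induced by interferon-gamma were higher with IL-17A/F-deficient T cells in part. Of 23 measured members of that list, 9 rose (3.36% of all genes did), none fell and 14 were not called. Their median log2 fold change was 1.06. Among the 9 were the guanylate-binding protein genes Gbp8, Gbp4, Gbp2b, Gbp7 and Gbp9, the immunity-related GTPase genes Iigp1 and Igtp, and the serpin gene Serpina3g. Igtp was called in 8 of 21 alternative fits, and the other genes named here in 14 to 19. With total T cells 19 of the 23 rose (11.7% of all genes did) and none fell (9.41% of all genes did), with a median of 1.48. Between IL-17A/F-deficient and total T cells 6 members, among them Gbp2, Acod1, Irgm1, Socs1 and Wars, were lower with IL-17A/F-deficient T cells and none was higher (12.4% and 12.6% of all genes), with a median of -0.74.

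Guanylate-binding proteins are GTPases that attack membranes around intracellular microbes. Gbp8 had 25.9 and 42.1 CPM with IL-17A/F-deficient T cells and, in order of library, 7.25, 12.4, 3.47, 7.79, 7.8 and 9.85 CPM without T cells. The groups did not overlap, and the log2 fold change was 2.14 ± 0.37 (SE; adjusted p = 0.00418). With total T cells Gbp8 had 15.1 to 53.6 CPM, and it differed from them by 0.18 on the log2 scale (adjusted p = 0.788). Gbp7 had 219 and 214 CPM with IL-17A/F-deficient T cells, against 74.9, 88.9, 96.4, 120, 92.8 and 91.3 CPM without T cells, a log2 fold change of 1.21 ± 0.21 (adjusted p = 0.00418). Gbp2b had 122 and 214 CPM against 43.1, 58, 62.3, 48.3, 57.4 and 45.3 CPM without T cells (1.69 ± 0.36, adjusted p = 0.0123). Both Gbp7 and Gbp2b lay above every library without T cells. Gbp7 and Gbp2b differed from total T cells by 0.31 and -0.47 on the log2 scale, with adjusted p of 0.333 and 0.43. The 5 other set C libraries had 5.33 to 20.9 CPM of Gbp8, 75.8 to 169 CPM of Gbp7 and 31 to 118 CPM of Gbp2b, so both libraries with IL-17A/F-deficient T cells lay above them for all 3 genes.

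Gbp4 had 29.7 and 45.7 CPM with IL-17A/F-deficient T cells and 3.78, 15.7, 4.85, 8.32, 16.2 and 7.47 CPM without T cells, which differed by 2.08 ± 0.53 on the log2 scale (adjusted p = 0.0294). Its level with total T cells was 34 to 158 CPM, and in the 5 other set C libraries 3.2 to 13.8 CPM. The annotated spans of Gbp8, Gbp9 and Gbp4 overlap on the minus strand of chromosome 5 (GRCm38, 105014150 to 105139540, 105077630 to 105139539 and 105115767 to 105139586), and the sources used here do not say how multi-matching reads were counted, so their counts, and those of the similar Gbp2b and Gbp7 on chromosome 3, may be shared in part. Serpina3g, an inhibitor of cathepsin-type proteases, had 47.9 and 86.8 CPM with IL-17A/F-deficient T cells, against 13.7, 31, 18, 14, 14.1 and 14.2 CPM without T cells (1.94 ± 0.49, adjusted p = 0.0288). Serpina3g had 9.81 to 37.5 CPM in the other set C libraries.

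Other members of the list had their highest levels with total T cells. Gbp2 had 206 and 313 CPM with IL-17A/F-deficient T cells, 282 to 1680 CPM with total T cells and 54.5 to 175 CPM without T cells. Its difference from no T cells did not pass the test (1.41 ± 0.50, adjusted p = 0.0976), and it was lower than with total T cells by 1.68 on the log2 scale (log2 fold change -1.68, adjusted p = 0.0433). Acod1, which makes the antimicrobial metabolite itaconate, had 17.2 and 19.5 CPM with IL-17A/F-deficient T cells, 75.8 to 586 CPM with total T cells and 0.966 to 29.7 CPM without T cells. It was not called against no T cells (log2 fold change 1.24, adjusted p = 0.489) and was lower than with total T cells (log2 fold change -3.88, adjusted p = 0.028). The CXCR3 ligand gene Cxcl9 had 79.3 and 345 CPM with IL-17A/F-deficient T cells, 124 to 2200 CPM with total T cells and 17.2 to 142 CPM without T cells. It was called in neither contrast of the IL-17A/F-deficient group (adjusted p = 0.15 against no T cells and 0.136 against total T cells). Cd274, the gene of the checkpoint ligand PD-L1, had 67.6 and 141 CPM with IL-17A/F-deficient T cells and 23 to 55.1 CPM without T cells, and missed the threshold (1.73 ± 0.51, adjusted p = 0.0507). The other set C libraries lay below both, at 65.6 to 151 CPM of Gbp2, 1.93 to 10.3 of Acod1, 2.48 to 66.5 of Cxcl9 and 17.1 to 65.5 of Cd274. With the library set in the model these genes differed from no T cells by 2.48, 4.19, 3.86 and 3.27, none called.

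The mean log2 CPM over the list was 6.09 and 6.67 with IL-17A/F-deficient T cells, 6.38 to 8.20 with total T cells and 5.16, 6.08, 5.16, 5.20, 5.24 and 5.26 without T cells. Library F2 without T cells stood apart from the other 5 and reached almost the level of F1 of the IL-17A/F-deficient group. That library, labelled female, also had 92 counts of the Y-linked gene Ddx3y, where the other 3 female libraries without T cells had 0 and the 2 male ones had 1261 and 1321. Its part in the result was measured by leaving it out: the list's median log2 fold change was then 1.11, with 9 members called higher. Without F1 of the IL-17A/F-deficient group 1 member was called (median 1.10), and without F2 of it none was (median 0.93). In the 5 other set C libraries the score was 4.71 to 5.88, below both libraries with IL-17A/F-deficient T cells. Within set C, IL-17A/F-deficient T cells were set against the mean of the T-bet ko and IFN-gamma ko T-cell groups, 2 female libraries each. There the list's median log2 fold change was 0.82, and no member was called.

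**Figure D2:**
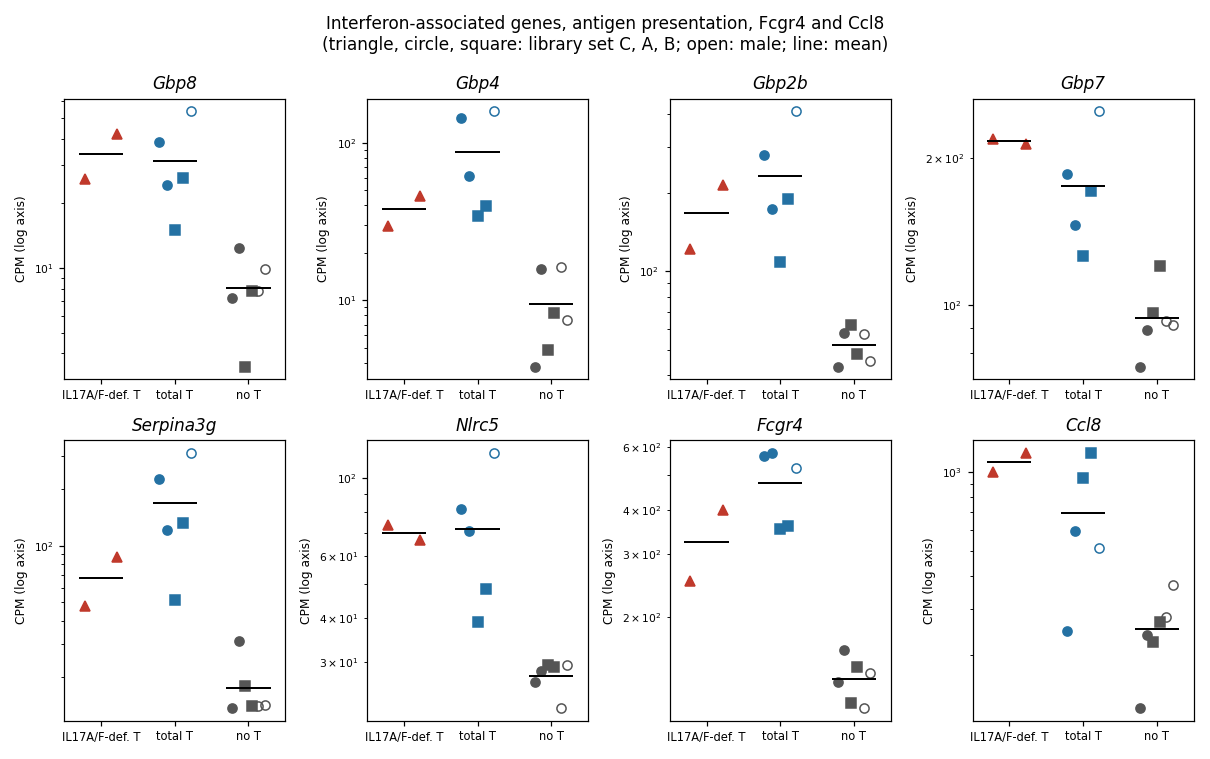
CPM on log axes of 8 genes in libraries with IL-17A/F-deficient T cells, total T cells and no T cells, 1 symbol per library, with a line at the group mean. For Gbp8, Gbp4, Gbp2b, Gbp7, Serpina3g, Nlrc5, Fcgr4 and Ccl8 both libraries with IL-17A/F-deficient T cells lie above all 6 without T cells.

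The promoters of the called interferon-gamma genes were read for the core letters of the gamma-activated sequence, TTCNNNGAA on either strand (a palindrome, so both strands read alike), since such elements occur in genes that interferon-gamma induces. Of the 9 called members, 4 had a promoter in the RefSeq table (build GRCm38.p6, 250 bases before to 50 bases after the start), and 3 of these held the letters. Of all 32851 promoters of 300 bases, 2726 (8.3%) held them. Of named genes with a promoter there 10 of 104 held them, and 3 of 23 among those called higher outside stromal genes. Mir99ahg, which fell, held them too. The list was made of genes known to be induced by interferon-gamma, so the share among its members is no test. The called members with the letters are Gbp7 (chr3:142530086-142530385, plus strand), Serpina3g (chr12:104235897-104236196, plus strand) and Igtp (chr11:58199306-58199605, plus strand). They are shown 5′ to 3′, with the letters of each match in capitals, starting 106 and 87 bases before the start in Gbp7, 33 before it in Serpina3g and 45 before it in Igtp. Gbp2b (chr3:142594597-142594896, plus strand) is the called member beside Gbp7 on chromosome 3 and had no match in this window. A match is a description of letters and not of a bound site.
Gbp7: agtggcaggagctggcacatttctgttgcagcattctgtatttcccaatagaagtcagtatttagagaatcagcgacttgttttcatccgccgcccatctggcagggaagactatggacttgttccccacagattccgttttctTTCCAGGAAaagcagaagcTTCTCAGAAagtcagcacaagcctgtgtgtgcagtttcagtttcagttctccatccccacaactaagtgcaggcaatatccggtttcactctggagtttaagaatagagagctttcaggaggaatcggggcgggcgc
Serpina3g: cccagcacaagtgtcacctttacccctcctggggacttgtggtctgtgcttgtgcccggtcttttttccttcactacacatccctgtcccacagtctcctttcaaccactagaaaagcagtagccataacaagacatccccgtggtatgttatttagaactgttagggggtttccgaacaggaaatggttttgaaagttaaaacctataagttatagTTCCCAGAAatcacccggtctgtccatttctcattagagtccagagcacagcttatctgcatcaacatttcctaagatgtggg
Igtp: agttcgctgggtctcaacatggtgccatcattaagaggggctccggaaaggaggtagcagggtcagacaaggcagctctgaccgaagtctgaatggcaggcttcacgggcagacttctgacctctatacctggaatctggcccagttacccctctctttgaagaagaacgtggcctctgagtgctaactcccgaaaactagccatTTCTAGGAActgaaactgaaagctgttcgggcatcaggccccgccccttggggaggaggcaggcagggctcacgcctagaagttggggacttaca
Gbp2b: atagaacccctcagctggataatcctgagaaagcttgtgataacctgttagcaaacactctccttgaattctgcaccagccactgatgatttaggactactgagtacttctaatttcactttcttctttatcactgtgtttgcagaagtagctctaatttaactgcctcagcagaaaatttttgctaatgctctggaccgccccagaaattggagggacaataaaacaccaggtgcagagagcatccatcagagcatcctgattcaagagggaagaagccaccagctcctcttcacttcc

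Most antigen presentation genes were not called. Of 20 measured genes of MHC class I and antigen processing, 4 rose with IL-17A/F-deficient T cells (3.36% of all genes did) and none fell (1.98% did), with a median log2 fold change of 0.33. With total T cells 19 of 20 rose (11.7% of all genes; median 1.04). Between IL-17A/F-deficient and total T cells 9 of the 20 were lower (12.4% of all genes) and none was higher (12.6%; median -0.60). Nlrc5, the transactivator of class I genes, had 73.4 and 66.6 CPM with IL-17A/F-deficient T cells and 26.3, 28.3, 29.4, 29, 22.2 and 29.4 CPM without T cells. The groups did not overlap (1.39 ± 0.28, adjusted p = 0.00738). Nlrc5 had 38.9 to 118 CPM with total T cells, and the direct difference from total T cells was 0.00 on the log2 scale (adjusted p = 0.995). In the other set C libraries Nlrc5 had 28 to 55.8 CPM. The class I gene H2-Q4 had 202 and 243 CPM with IL-17A/F-deficient T cells and 102 to 159 CPM without T cells (0.71 ± 0.19, adjusted p = 0.0292); it is 1 of several near-identical H2-Q genes, so its reads may be shared. The other called members were Erap1, which trims peptides (0.59 ± 0.14, adjusted p = 0.0197; 87.4 to 124 CPM in the other set C libraries, against 79.7 to 89 CPM without T cells), and Tapbpl, which edits the loaded peptide (0.75 ± 0.19, adjusted p = 0.0268).

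The peptide transporter and the immunoproteasome behaved otherwise. Tap1, a subunit of the transporter, had 273 and 357 CPM with IL-17A/F-deficient T cells, against 415 to 975 CPM with total T cells and 196, 276, 199, 221, 208 and 209 CPM without T cells. It was not called against no T cells (0.53 ± 0.26, adjusted p = 0.232) and was lower than with total T cells (log2 fold change -1.2, adjusted p = 0.00489). Psmb8, an immunoproteasome subunit, had 202 and 272 CPM with IL-17A/F-deficient T cells, 328 to 788 CPM with total T cells and 184 to 241 CPM without T cells. Its direct difference from total T cells was -1.18 on the log2 scale (adjusted p = 0.0024), and from no T cells 0.17 (adjusted p = 0.744). Psmb10, another such subunit, differed from no T cells by 0.01 (adjusted p = 0.989) and from total T cells by -1.23 (adjusted p = 0.00215). The other set C libraries had 130 to 217 CPM of Tap1, 109 to 196 CPM of Psmb8 and 80.9 to 136 CPM of Psmb10. With the library set in the model, Tap1, Psmb8 and Psmb10 differed from no T cells by 1.59, 1.17 and 0.97 (adjusted p = 0.0755, 0.247 and 0.491). With ribosomal protein CPM in the model Tap1 was called (1.24, adjusted p = 0.0359).

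No MHC class II gene was called against no T cells by edgeR (1 at an unadjusted p under 0.05, 1 called by DESeq2). The 11 measured members had a median log2 fold change of 0.21, and with total T cells 6 of them rose (11.7% of all genes did; median 0.73). H2-Ab1, the class II beta chain, had 9160 and 13000 CPM with IL-17A/F-deficient T cells, 11400 to 16700 CPM with total T cells and 8680 to 10400 CPM without T cells (0.21 ± 0.28, adjusted p = 0.721). Ciita, the class II transactivator, had 261 and 266 CPM with IL-17A/F-deficient T cells, above the 91.3 to 160 CPM without T cells, and missed the threshold (1.10 ± 0.34, adjusted p = 0.0563). H2-DMb2, a chain of the peptide exchanger, had 6.99 and 12.6 CPM with IL-17A/F-deficient T cells, 35.3 to 41.1 CPM with total T cells and 14.1 to 24 CPM without T cells. It was lower than with total T cells (log2 fold change -1.97, adjusted p = 0.00797) and was not called against no T cells (-0.79 ± 0.49, adjusted p = 0.363). In the 5 other set C libraries H2-Ab1 had 3340 to 8270 CPM, below both groups, while Ciita had 69.8 to 183 CPM and H2-DMb2 1.24 to 7.48 CPM. When the model also held a term for the library set, H2-Ab1 had a log2 fold change of 1.80 against no T cells (adjusted p = 0.023), and the class II list a median of 1.62 with 4 members called.

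Fcgr4, the gene of the activating receptor for IgG2 immune complexes, was one of the differences called in most alternative fits. It had 253 and 398 CPM with IL-17A/F-deficient T cells, against 131, 162, 115, 145, 111 and 139 CPM without T cells, with no overlap (1.24 ± 0.23, adjusted p = 0.00454). Total T cells gave 566, 578, 354, 361 and 525 CPM, and the direct difference from them did not pass the test (-0.58, adjusted p = 0.0927). The 5 other set C libraries had 78.4 to 157 CPM. Fcgr4 was the 1 gene of 12597 (0.00794%) called between IL-17A/F-deficient T cells and the mean of T-bet ko and IFN-gamma ko T cells (log2 fold change 1.54, adjusted p = 0.0153), a contrast in which 476 genes had an unadjusted p under 0.05. It was called in 18 of 21 alternative fits. Fcgr2b, the inhibitory Fc receptor, had 892 and 840 CPM with IL-17A/F-deficient T cells and 523 to 669 CPM without T cells (0.59 ± 0.16, adjusted p = 0.0345). Of 6 measured Fc receptor genes 2 rose (3.36% of all genes did) and none fell, and with total T cells 4 rose (11.7% of all genes did).

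Of 22 measured chemokine genes, 3 rose (3.36% of all genes did) and none fell (1.98% did) with IL-17A/F-deficient T cells (list median 0.01 on the log2 scale), and 1 of the 3, Cxcl12, is stromal. Ccl8, a ligand of CCR8 that draws T cells, had 994 and 1180 CPM with IL-17A/F-deficient T cells and 126, 239, 224, 267, 281 and 369 CPM without T cells (2.11 ± 0.44, adjusted p = 0.0113). The groups did not overlap, but the 5 other set C libraries ran from 252 to 1160 CPM. Total T cells gave 248, 596, 947, 1180 and 512 CPM. Cxcl13, which draws B cells and follicular T cells through CXCR5, had 24.4 and 118 CPM with IL-17A/F-deficient T cells and 1.5, 4.42, 1.39, 1.21, 1.38 and 16.8 CPM without T cells, where M2 was the high library (4.25 ± 0.87, adjusted p = 0.0113). Total T cells gave 17.9 to 92 CPM of Cxcl13 and the other set C libraries 14.1 to 56.2 CPM. Cxcl12 is given with the stroma list.

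Of 13 measured complement genes 3 were higher with IL-17A/F-deficient T cells, namely C3, C4b and the receptor subunit gene Itgam, and none was lower (3.36% and 1.98% of all genes; median log2 fold change 0.44). With total T cells 3 were higher and 1 lower (11.7% and 9.41% of all genes). C3, the central component, had 280 and 753 CPM with IL-17A/F-deficient T cells, 282 to 2920 CPM with total T cells and 64.7, 245, 71.8, 41.9, 184 and 100 CPM without T cells. F1 of the IL-17A/F-deficient group lay just above F2 without T cells (2.43 ± 0.67, adjusted p = 0.0391), and the other set C libraries reached 187 to 309 CPM. Outside that list, C6, a component of the membrane attack complex, had 81.7 and 144 CPM with IL-17A/F-deficient T cells, 7.88 to 48.4 CPM with total T cells and 1.34 to 18.3 CPM without T cells (4.19 ± 0.69, adjusted p = 0.00418). C6 was also higher than with total T cells (2.06, adjusted p = 0.0321), and the other set C libraries held 17.9 to 90.7 CPM. C1s1, a protease of the C1 complex, had 7.71 and 31.4 CPM with IL-17A/F-deficient T cells and 0.0813 to 2.89 CPM without T cells (4.0 ± 0.84, adjusted p = 0.0106), with 10.7 to 15.6 CPM in the other set C libraries. C4b rose (1.72 ± 0.32, adjusted p = 0.00556) and followed the stroma list. Itgam had 918 and 769 CPM with IL-17A/F-deficient T cells and 437 to 484 CPM without T cells (0.91 ± 0.24, adjusted p = 0.03), with 636 to 1160 CPM in the other set C libraries and a log2 fold change of -0.32 when the library set was in the model. Cfb, of the alternative pathway, missed the threshold (1.97 ± 0.61, adjusted p = 0.0582).

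Most targets of IL-17 and NF-kB were not called. Of 20 measured, 3 rose and 1 fell (3.36% and 1.98% of all genes did; median log2 fold change -0.04), and with total T cells 5 rose and 2 fell (11.7% and 9.41% of all genes; median 0.38). Tnfaip3, which encodes the NF-kB brake A20, had 1560 and 1530 CPM with IL-17A/F-deficient T cells, 897 to 1260 CPM with total T cells and 565 to 906 CPM without T cells. It was higher than in either group (1.05 ± 0.17, adjusted p = 0.00379, against no T cells; 0.54, adjusted p = 0.0314, against total T cells), and the other set C libraries had 1050 to 1530 CPM. Nfkbie rose (1.12 ± 0.30, adjusted p = 0.0319) and the other inhibitor gene, Nfkbia, fell: it had 874 and 742 CPM with IL-17A/F-deficient T cells, 1140 to 2010 CPM with total T cells and 1220 to 1560 CPM without T cells (-0.82 ± 0.16, adjusted p = 0.00561). Nfkbia was at 834 to 1080 CPM in the other set C libraries, which overlapped F1 of the IL-17A/F-deficient group. Ptgs2, the inducible cyclooxygenase, had 418 and 800 CPM with IL-17A/F-deficient T cells, 893 to 2200 CPM with total T cells and 136 to 338 CPM without T cells. It was higher than without T cells (1.42 ± 0.39, adjusted p = 0.0396) and lower than with total T cells (-1.27, adjusted p = 0.0497). Of 11 measured genes of the IL-17 receptor and its signalling none was called against no T cells by edgeR or DESeq2 (3 at an unadjusted p under 0.05; median 0.28); Usp25, a deubiquitinase that tempers IL-17 signalling, differed by 0.42 (adjusted p = 0.091) and the adaptor ligase gene Traf6 by -0.53 (adjusted p = 0.113).

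Genes typical of monocyte-derived cells differed between the T-cell groups. With total T cells 13 of 18 measured rose (11.7% of all genes did) and none fell (median log2 fold change 2.67). With IL-17A/F-deficient T cells none rose and 2, Ccr2 and S100a4, fell against no T cells (1.98% of all genes did; median -0.79). Between IL-17A/F-deficient and total T cells 9 of the 18 were lower and none was higher (12.4% and 12.6% of all genes; median -3.06). Ccr2, the chemokine receptor that brings monocytes out of the bone marrow, had 271 and 321 CPM with IL-17A/F-deficient T cells, 1800, 1190, 1320, 1010 and 1180 CPM with total T cells and 534, 797, 628, 648, 468 and 702 CPM without T cells. The 3 groups did not overlap. Ccr2 fell by 1.16 on the log2 scale against no T cells (log2 fold change -1.16 ± 0.31, adjusted p = 0.0321) and was lower than with total T cells (-2.18, adjusted p = 0.000231), and the 5 other set C libraries had 213 to 338 CPM. S100a4, a calcium-binding protein of motile monocytes, had 17.9 and 22.2 CPM with IL-17A/F-deficient T cells, 189, 98.3, 121, 133 and 93.1 CPM with total T cells and 58.3, 125, 129, 131, 71.9 and 62.8 CPM without T cells (-2.38 ± 0.57, adjusted p = 0.0223, against no T cells; -2.74, adjusted p = 0.00276, against total T cells). The other set C libraries, at 6.4 to 18.9 CPM of S100a4, were as low.

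Ly6c2, the marker of classical monocytes, had 12.3 and 1.82 CPM with IL-17A/F-deficient T cells, 860, 209, 72.9, 142 and 574 CPM with total T cells and 26.9, 63.6, 23.9, 38.1, 68.1 and 31 CPM without T cells. It was lower than with total T cells (-5.65, adjusted p = 0.0292), while the difference from no T cells did not pass the test (-2.51 ± 1.54, adjusted p = 0.363). Plac8, also high in classical monocytes, had 22.4 and 10.3 CPM with IL-17A/F-deficient T cells, 1890, 395, 173, 292 and 944 CPM with total T cells and 39, 138, 61.4, 80.7, 70.1 and 62.1 CPM without T cells. It was lower than with total T cells (-5.49, adjusted p = 0.0325). Ly6c2 was at 0.275 to 2.31 CPM and Plac8 at 0.394 to 9.63 CPM in the 5 other set C libraries, so these libraries were low too. The mean log2 CPM over the monocyte list was 4.36 and 4.31 with IL-17A/F-deficient T cells. That lay above the 5 other set C libraries (2.22 to 3.41) and below those without T cells (4.5 to 5.96). Against the mean of T-bet ko and IFN-gamma ko T cells the list's median log2 fold change was 1.02, with 0 members called. A model that also held the library set turned the direction against no T cells for Ccr2 (log2 fold change 0.53), Ly6c2 (2.98) and Plac8 (2.94), and called 2 genes in all between IL-17A/F-deficient and total T cells. In RNA of bulk-sorted cells, fewer cells of a type and less RNA per cell cannot be told apart. Ear2, an eosinophil-associated ribonuclease gene found in patrolling monocytes, missed the threshold against no T cells (-3.53 ± 1.05, adjusted p = 0.0523).

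Genes typical of resident border macrophages were not called against no T cells. None of 19 measured was called by edgeR with IL-17A/F-deficient T cells (median log2 fold change 0.15; an unadjusted p under 0.05 for 2 higher and 1 lower, 1 called by DESeq2), whereas with total T cells 14 fell and 1 rose (9.41% and 11.7% of all genes; median -1.08). Between IL-17A/F-deficient and total T cells 11 were higher (12.6% of all genes) and none was lower (median 1.10), in a contrast where the model with the library set called 2 genes in all. The mannose receptor gene Mrc1 had 4910 and 4350 CPM with IL-17A/F-deficient T cells, 510, 1440, 2650, 2080 and 785 CPM with total T cells and 2620, 2310, 3510, 3240, 2830 and 2900 CPM without T cells. The libraries with IL-17A/F-deficient T cells were the highest of the 3 groups, and the direct test against total T cells passed (1.62, adjusted p = 0.0024) while that against no T cells did not (0.63 ± 0.36, adjusted p = 0.315). Gas6, a bridging ligand for the uptake of dying cells, had 1250 and 864 CPM with IL-17A/F-deficient T cells, 149, 305, 559, 569 and 156 CPM with total T cells and 915, 791, 1190, 900, 966 and 1060 CPM without T cells (1.59, adjusted p = 0.00231, against total T cells; 0.07 ± 0.36, adjusted p = 0.944, against no T cells). Pf4, a chemokine gene of border macrophages, had 483 and 376 CPM with IL-17A/F-deficient T cells, 97.2 to 415 CPM with total T cells and 544 to 846 CPM without T cells, and was called in neither contrast of the IL-17A/F-deficient group. Siglec1, the sialic acid receptor of resident macrophages, had 1130 and 993 CPM against 489 to 686 CPM without T cells (0.78 ± 0.30, adjusted p = 0.119) and followed the stroma list. The other set C libraries held 4370 to 5640 CPM of Mrc1, 988 to 1480 CPM of Siglec1, 405 to 606 CPM of Pf4 and 1090 to 1390 CPM of Gas6. The difference from no T cells turned when the model held the library set for Mrc1 (-0.30), Siglec1 (-0.31) and Gas6 (-0.48), and when it held ribosomal protein CPM for Mrc1 (-0.41) and Gas6 (-0.83).

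**Figure D3:**
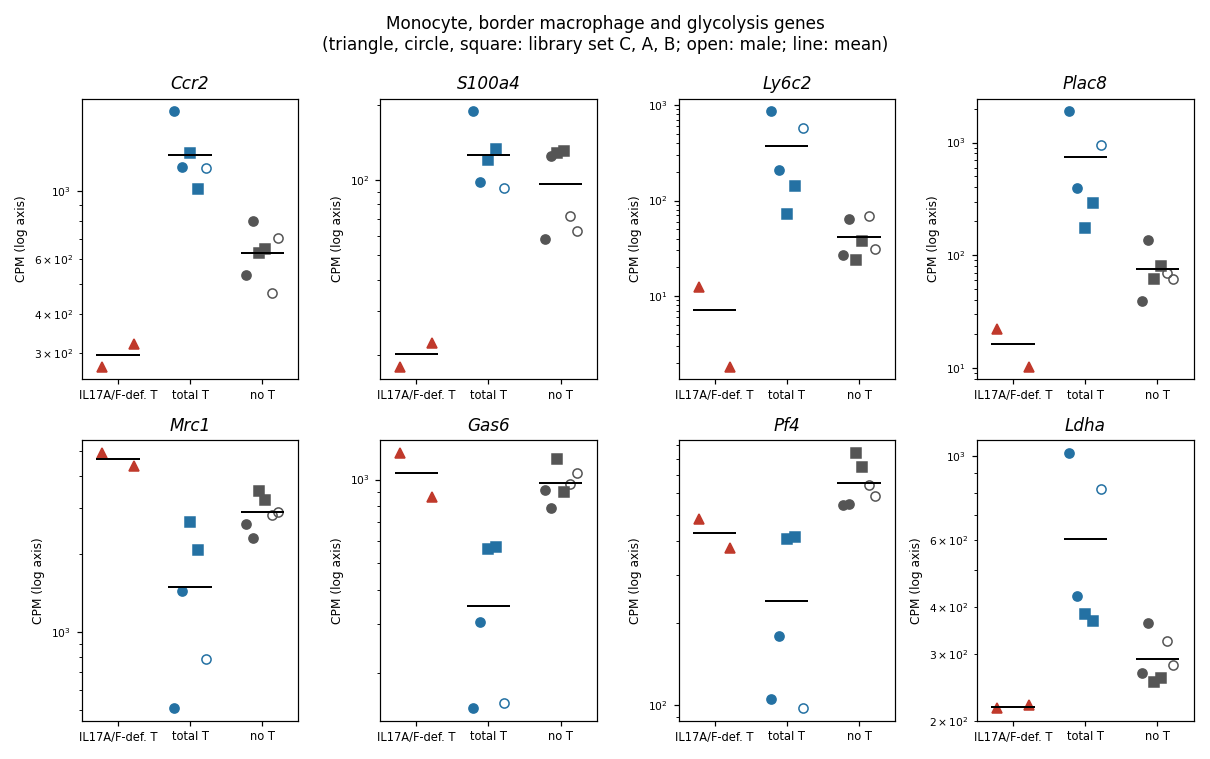
CPM on log axes of 4 genes of monocytes (Ccr2, S100a4, Ly6c2, Plac8), 3 of border macrophages (Mrc1, Gas6, Pf4) and the glycolytic gene Ldha, 1 symbol per library, with a line at the group mean. The libraries with IL-17A/F-deficient T cells lie below those without T cells for the 4 monocyte genes, and above all 5 with total T cells for Mrc1 and Gas6.

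Among glycolysis and hypoxia genes, which rise when cells turn to anaerobic metabolism, the direct test between the T-cell groups made calls. Of 20 measured, none was called by edgeR with IL-17A/F-deficient T cells against no T cells (median log2 fold change 0.01; an unadjusted p under 0.05 for 2 higher and 2 lower, 1 called by DESeq2), 17 rose with total T cells (11.7% of all genes did; median 1.2), and 13 were lower with IL-17A/F-deficient than with total T cells (12.4% of all genes; median -1.40). With the library set in the model, 2 genes in all were called between these T-cell groups. Ldha, lactate dehydrogenase A, had 216 and 220 CPM with IL-17A/F-deficient T cells, 1020, 428, 383, 366 and 816 CPM with total T cells and 268, 362, 253, 259, 324 and 281 CPM without T cells. It was lower than with total T cells (-1.42, adjusted p = 0.0018) and was not called against no T cells (-0.36 ± 0.28, adjusted p = 0.486), and the other set C libraries had 173 to 238 CPM. Cholesterol synthesis genes had 0 of 19 called against no T cells by edgeR or DESeq2 (2 lower at an unadjusted p under 0.05), 5 higher with total T cells (11.7% of all genes) and 5 lower in the direct test (12.4%).

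Single genes that marked the response to total T cells were split. By the lowest p with total T cells, Fcgr4 and Tap1 are described above. Slco3a1, an organic anion transporter, had 22.8 and 46.8 CPM with IL-17A/F-deficient T cells, 33.7 to 125 CPM with total T cells and 9.79 to 19.9 CPM without T cells. It was higher than without T cells (1.36 ± 0.37, adjusted p = 0.0345) and lower than with total T cells (-1.23, adjusted p = 0.0356). Psen2, a catalytic subunit gene of gamma-secretase, had 41.7 and 50.4 CPM with IL-17A/F-deficient T cells, 83.6 to 199 CPM with total T cells and 42.1 to 62.8 CPM without T cells. Its log2 difference was -0.02 from no T cells (adjusted p = 0.974) and -1.46 from total T cells (adjusted p = 0.000334). The lysosomal thioesterase gene Ppt2 gave 0.12 (adjusted p = 0.806) and -1.17 (adjusted p = 0.000945) for the same contrasts. Of the genes that fell with total T cells, Clstn1 differed from no T cells by 0.46 (adjusted p = 0.335) and from total T cells by 2.14 (adjusted p = 5.37e-05). Clstn1 followed the stroma list (r = 0.85), the other set C libraries had 62.9 to 90 CPM of it, and with the library set in the model its difference from no T cells was -0.38. Serpinf1, Ttc3, Oas2 and Bank1 differed from no T cells by -0.19 to 0.11 with IL-17A/F-deficient T cells, none called, and were each higher than with total T cells (log2 fold change 1.11 to 1.66). Serpinf1 is itself on the stroma list and Ttc3 followed it (r = 0.72). Gstm1 was not called in either contrast of the IL-17A/F-deficient group (-0.62, adjusted p = 0.0719, and 0.45, adjusted p = 0.0963).

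**Figure D4:**
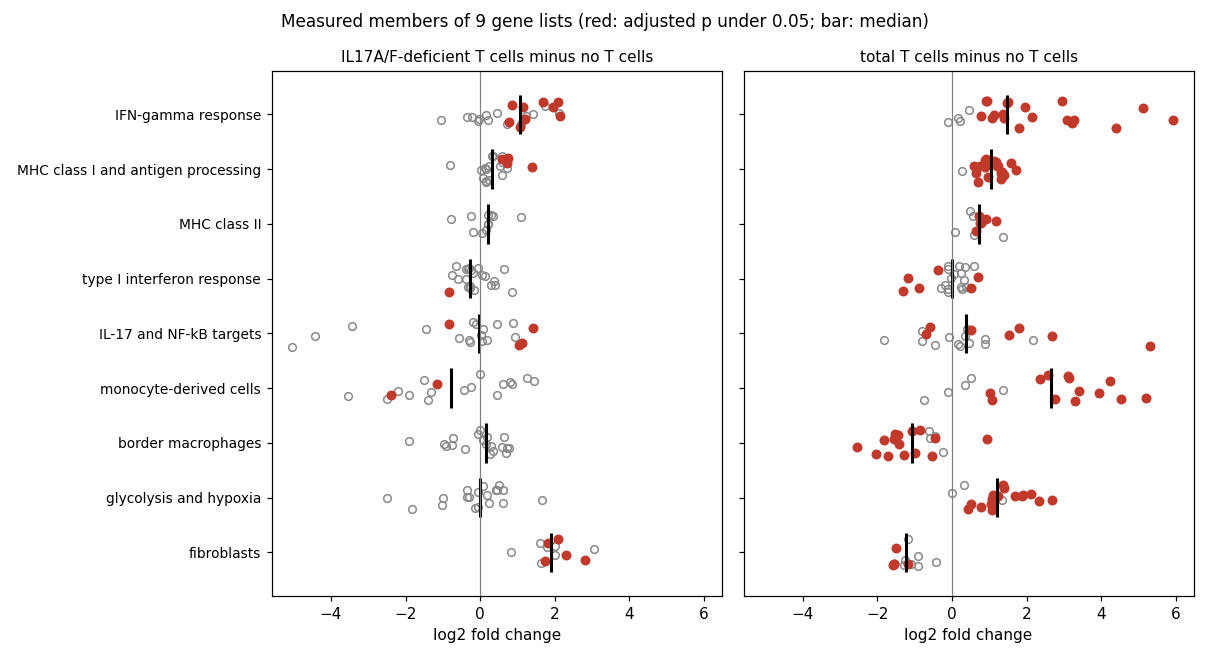
Log2 fold changes of the measured members of 9 gene lists (rows) in 2 contrasts (panels), 1 point per gene, red where the adjusted p was under 0.05, with a bar at the list median. The panels set IL-17A/F-deficient T cells and total T cells each against no T cells. The interferon-gamma list has 9 called members above 0 against no T cells, the monocyte list has 2 below 0 there and 13 above 0 with total T cells, and the border macrophage list has none called against no T cells.

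The remaining genes with the largest rises, outside stromal and ribosomal protein genes, were of mixed function. Grasp, a scaffold protein of endosomal receptor traffic, had 7.93 and 23.3 CPM with IL-17A/F-deficient T cells and 1.06 to 5.89 CPM without T cells (2.22 ± 0.51, adjusted p = 0.0159). The membrane-bound metalloproteinase gene Mmp25 had 16.4 and 43 CPM against 3.98 to 14.7 CPM (2.0 ± 0.53, adjusted p = 0.0322). Both lay above the other set C libraries, at 3.94 to 6.33 and 4.94 to 12.6 CPM, and both also rose with total T cells (2.11 and 3.07). Zfp335, a zinc finger regulator, and F3, tissue factor, rose too (1.99 ± 0.49, adjusted p = 0.0202, and 1.94 ± 0.52, adjusted p = 0.0298), with 11.9 to 18.9 and 5.81 to 15.4 CPM in the other set C libraries, as high as with IL-17A/F-deficient T cells. In the cytokine receptor list 2 of 20 rose (3.36% of all genes did), Il4ra and Il6st, and both followed the stroma list. In alternative activation 2 of 15 rose, Il4ra and the transcription factor gene Klf4 (1.16 ± 0.31, adjusted p = 0.0329), and Retnla fell. Retnla, a secreted marker of IL-4-driven macrophages, had 2.88 and 9.61 CPM with IL-17A/F-deficient T cells and 51.2 to 156 CPM without T cells (-4.30 ± 1.25, adjusted p = 0.0492), with 5.25 to 69.5 CPM in the other set C libraries. It was called in 7 of 21 alternative fits, and with the library set in the model the difference was -1.03 (adjusted p = 0.996).

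The genes that fell were mostly short. The median exon length was 2497.5 bases over the 250 lower genes, 8433 over the 423 higher genes and 4473.5 over all genes tested. When genes were cut by exon length into 5 bins of equal size, the shortest (53 to 2473 bases) held 23 higher and 123 lower genes (median log2 fold change -0.32). In the longest bin 239 were higher and 15 lower, with a median of 0.29. S100a6, a neighbour of S100a4 on chromosome 3, had 13.7 and 13.1 CPM with IL-17A/F-deficient T cells, 92.4 to 227 CPM with total T cells and 35.7 to 75.2 CPM without T cells (-2.01 ± 0.53, adjusted p = 0.0322), with 9.65 to 25.9 CPM in the other set C libraries. The chromatin and proliferation genes Hmgb2 and Stmn1 fell by 1.80 and 1.97 on the log2 scale (adjusted p = 0.0473 and 0.0486). Hmgb2 had 12.3 and 12 CPM with IL-17A/F-deficient T cells and 35.9 to 74.1 CPM in set A and 18 and 21.5 CPM in set B without T cells. Against set A alone it differed by -2.21 (adjusted p = 0.0122) and against set B alone by -0.69 (adjusted p = 0.468), and the sign turned with the library set (0.23) or ribosomal protein CPM (0.11) in the model. Oaz1 (polyamine control), U2af1 (splicing), Tusc1, Serf2 and Cd300lg fell by 1.76, 1.67, 1.67, 1.64 and 2.28 (adjusted p = 0.0454, 0.0435, 0.0268, 0.015 and 0.0255). For Oaz1 the difference was -2.17 from set A (adjusted p = 0.0105), -0.68 from set B (adjusted p = 0.468) and 0.13 with ribosomal protein CPM in the model. The noncoding RNAs Mir99ahg and Kdm6bos fell by 2.79 and 3.66 (adjusted p = 0.0311 and 0.00556), and Kdm6bos cannot be told apart from the overlapping Kdm6b in unstranded libraries. The other set C libraries had 1.93 to 6.33 CPM of Mir99ahg, 1.65 to 3.56 of Kdm6bos, 0.787 to 2.93 of Cd300lg and 3.91 to 6.06 of Tusc1. For U2af1, Serf2 and Stmn1 they had 4.04 to 8.59, 15.7 to 28.8 and 0.688 to 4.44 CPM. All these levels lay below every library without T cells. With the library set in the model the differences of these genes from no T cells were -0.75 to -0.1, none called.

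The next lists had 0 to 2 calls each, where 3.36% of all genes rose and 1.98% fell. Of 22 type I interferon genes 1 fell, Xaf1 (-0.84 ± 0.24, adjusted p = 0.0401), and none rose (median log2 fold change -0.26). The antiviral genes Oas1a (-0.75 ± 0.23, adjusted p = 0.0523) and Ifitm3 (-0.59 ± 0.19, adjusted p = 0.0719) were lower than every library without T cells and missed the threshold. The other set C libraries, at 34.8 to 51.9 CPM of Oas1a, 331 to 410 of Ifitm3 and 14.6 to 21.9 of Xaf1, also lay below those libraries. With the library set in the model the differences from no T cells were -0.04, -0.22 and -0.57, none called. Of 26 cell cycle genes 2 fell, Stmn1 and the replication helicase gene Mcm7 (-1.06 ± 0.24, adjusted p = 0.0133). The list's median was -0.73, with 9 lower and 1 higher at an unadjusted p under 0.05. With total T cells 4 fell (9.41% of all genes did) and 0 rose. Mcm7 had 24.9 and 16.8 CPM, which overlapped the 22.6 to 54 CPM without T cells. It fell with total T cells too (-0.82, edgeR adjusted p = 0.00103). Of 20 early-response genes that tissue digestion induces, Fosb rose (1.16 ± 0.25, adjusted p = 0.0123) and Ier2 fell (-0.81 ± 0.24, adjusted p = 0.0497). In the lysosome list 1 of 20 rose, the cholesterol transporter gene Npc1 (0.63 ± 0.16, adjusted p = 0.0224). Npc1 had 193 and 215 CPM with IL-17A/F-deficient T cells and 206 to 226 CPM in the other set C libraries. With the library set in the model its difference from no T cells was 0.2, not called. No member was called by edgeR among microglia (11 measured), iron and haem (13) or costimulation genes (12), where 2, 1 and 3 had an unadjusted p under 0.05 and DESeq2 called 0, 1 and 1.

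Genes on the stroma list (14) or following its sum (224) together outnumbered the 185 other higher genes. Which cells made the RNA of the genes that followed the sum was not tested. Of 85 measured on the stroma list 14 rose (3.36% of all genes did) and none fell (median log2 fold change 1.34), and of 12 fibroblast genes 5 rose and none fell (median 1.91). Cdh11, a fibroblast cadherin, had 137 and 217 CPM with IL-17A/F-deficient T cells, 11.5 to 18.2 CPM with total T cells and 22.7 to 48.6 CPM without T cells (2.12 ± 0.41, adjusted p = 0.00742), with 104 to 244 CPM in the other set C libraries. Pdgfra, a receptor gene for platelet-derived growth factor in fibroblasts, had 21.3 and 53.8 CPM against 3.8 to 6.85 CPM without T cells (2.82 ± 0.66, adjusted p = 0.0197). Cxcl12, made by stromal cells, had 102 and 179 CPM against 33.6 to 52.9 CPM without T cells (1.76 ± 0.43, adjusted p = 0.0245). Alpl and Efemp1 rose by 1.60 and 2.18 (adjusted p = 0.0159 and 0.0187). With the summed stroma CPM as a covariate no gene was called (0, against 988 at an unadjusted p under 0.05), so no member of the interferon-gamma list was called, at a median of 1.16; within these 8 libraries stromal RNA and the T cells cannot be told apart.

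Markers of other cell types were summed in each library. Natural killer cell genes reached 1.51 and 3.12 CPM with IL-17A/F-deficient T cells, with 6 of 10 at 0 in both libraries. Neutrophil genes summed to 384 and 393 CPM, against 363 to 3020 CPM without T cells, with Ly6g, Retnlg and Cxcr2 at 0 in both libraries with IL-17A/F-deficient T cells. B-cell genes summed to 346 and 414 CPM with IL-17A/F-deficient T cells and 379 to 504 CPM without T cells, endothelial genes to 219 and 72.4 against 49 to 299 CPM, mast cell genes to 217 and 154 against 7.52 to 266 CPM, and erythroid genes to 51.1 and 22 against 28.2 to 492 CPM. Dendritic cell genes summed to 457 and 517 CPM with IL-17A/F-deficient T cells, against 492 to 590 CPM without T cells. None of these sums lay above every library without T cells in both libraries with IL-17A/F-deficient T cells, while those of T-cell genes, given above, and of fibroblast genes did, the last at 3030 and 4420 CPM against 684 to 1970 CPM. What part fibroblast RNA had in the other differences was not tested.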

How the data were processed

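Libraries of sorted dural macrophage RNA were made with an unstranded kit and read from 1 end over 75 bases, per the labels' protocols. The authors deposited 1 table with the read counts of each gene as whole numbers, 1 column for each of 27 libraries. The submitters' processing notes name GRCm38 as the genome, and as tools featureCounts, STAR 2.4.0j and DESeq2 1.20.0. The deposited table is named as normalized, but every count from 1 to 20 occurs in each of its 27 columns and the totals differ, from 6902602 to 19966749, so the counts were treated as raw. Columns give group and sex but no replicate number, so libraries carry running numbers. The chi-square per degree of freedom between library pairs of a group was 18.3 for the IL-17A/F-deficient pair and 11.9 to 48.3 over 15 pairs without T cells, so no library was counted as a copy. Of 41388 identifiers, 40254 had a symbol in GENCODE M21.

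The filter kept the 12597 genes whose normalized counts averaged 10 or more. A model with group and sex was fitted to all 27 libraries with edgeR 4.0.16 (R 4.3.3, TMM scaling, robust quasi-likelihood test), and p-values were Benjamini-Hochberg adjusted over all genes of a contrast. Calls were made at an adjusted p under 0.05. CPM use library totals multiplied by the TMM factors. DESeq2 1.42.0 was an alternative, and the scripts were tested on simulated data. Counts limit precision at low levels: 3 counts are 0.216 and 0.39 CPM in the IL-17A/F-deficient libraries, for counting error only.

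The members and the 32 gene lists were chosen with earlier results of these data known, so no list is independent evidence. Named genes were the 12 largest rises and 12 largest falls among called genes whose groups did not overlap (a mean of at least 10 CPM in the higher group; stromal, ribosomal protein, erythroid and unnamed genes left out), up to 3 members of each list with the lowest p, and the 6 rises and 6 falls of lowest p with total T cells. Of 120 such genes those that bear on the results are printed, and some results are not reported here. Another 18 were chosen after their values were seen: Gbp9, Igtp, Iigp1, Gbp2, Cxcl9, Acod1, H2-Ab1, H2-Q4, Psmb8, Psmb10, Ptgs2, Ly6c2, Plac8, Mrc1, Gas6, Pf4, Ldha and Cfb. Sets of libraries were split by summed ribosomal protein CPM (under 10000, over 20000 and between).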

Additional observations from a re-analysis of the deposited data

Results flagged for a closer look

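Dixon's gap test picked out 12 of 123 values and list scores tested, all within the 6 libraries without T cells. In 6 of them the high library was F2: Serpina3g (31 CPM, the next library 18), Cxcl9 (142, next 45.1), Cd274 (55.1, next 31.5), Acod1 (29.7, next 5.2), Tap1 (276, next 221) and the interferon-gamma score (6.08, next 5.26). F2 is also the library, labelled female, with 92 counts of Ddx3y. M2 was high for Cxcl13 (16.8 CPM, next 4.42), H2-DMb2 (24, next 17.6) and Npc1 (185, next 138). M1 was low for Cdh11 (22.7 CPM, next 39.6) and for the cytokine receptor score (7.09, next 7.29). F3 was low for Hk1 (64.6 CPM, next 73.3). A 95% limit picks out some values in any large set by chance.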

How the results depend on the processing

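No paired analysis was possible because the columns carry no replicate numbers of the titles. Counts of genes called, in the order all, higher and lower, were 673, 423 and 250, with 185 higher and 216 lower outside stromal and ribosomal protein genes. DESeq2's Wald test gave 1169 and 541 lower (295 and 466 outside). No filter on low counts gave 1388, 949 and 439 (433 and 363 outside). A fit of the 8 libraries alone gave 1027, 638 and 389 (366 lower outside). With the library set as a term there were 34, 26 and 8 (26 and 5 outside), of which 6 were among the 673. The set C part of that term rests on 1 library. Controls of set A alone gave 277 higher, and those of set B 71, 38 and 33 (20 and 33 outside). The stroma covariate left 0, 0 and 0 (0 and 0 outside), and the ribosomal protein covariate, added after the data were seen, 59, 47 and 12 (45 and 12 outside). Testing without stromal and ribosomal protein genes left 101 lower. Leaving out 1 library gave 2 to 620 calls, 2 to 371 higher, 0 to 254 lower, 1 to 166 higher outside and 0 to 205 lower outside; besides F1 and F2 of the IL-17A/F-deficient group, only no T-cell F2 moved a count by over 1.5 times (161 lower, 141 outside). In females alone total T cells against no T cells gave 1532, and with the set term IL-17A/F-deficient against total T cells gave 2. All 673 genes kept their direction in these fits where tested, except that 485 did under the set term and 657 under the ribosomal protein covariate. The interferon-gamma median ran from 0.78 to 2.14 over all fits.

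The log2 fold change changed sign under the set term for Hmgb2 (0.23), H2-DMb2 (1.61), Ccr2 (0.53), Ear2 (0.8), Ly6c2 (2.98), Plac8 (2.94), Siglec1 (-0.31), Mrc1 (-0.3), Gas6 (-0.48), Ldha (0.03), Gapdh (0.37), Hk1 (-0.08), Cxcl12 (-0.59), Itgam (-0.32), Il4ra (-0.1), Klf4 (-0.36), Il6st (-0.09), Fosb (-0.19), Psen2 (0.1), Clstn1 (-0.38), Ttc3 (-0.48), Bank1 (0.06), Pdgfra (-0.2) and Efemp1 (-0.04). Under the ribosomal protein covariate it did for Hmgb2 (0.11), Oaz1 (0.13), Ly6c2 (0.14), Mrc1 (-0.41), Gas6 (-0.83), Ldha (0.27), Gapdh (1.43), Psen2 (0.44) and Ttc3 (-0.49). Genes near 0 also crossed it: Psmb10 in the 8 libraries alone (-0.04), without the sex term (-0.02) and in females (-0.03); Serpinf1 without the sex term (0.1), in females (0.01) and with set A controls (0.01); Bank1 without the sex term (0.05) and with the stroma covariate (0.22); Psen2 without a filter (0.01), in females (0.01), with set B controls (0.14) and without stromal genes (0.05); Gapdh (0) and Ttc3 (-0.03) with set B controls. On leaving out 1 library the range was -0.06 to 0.44 for H2-Ab1, -0.06 to 0.37 for Psmb8, -0.25 to 0.23 for Psmb10, -0.22 to 0.31 for Gas6, -0.16 to 0.11 for Psen2, -0.26 to 0.42 for Ppt2, -0.18 to 0.1 for Serpinf1, -0.71 to 0.18 for Oas2 and -0.37 to 0.16 for Bank1. The causes were not tested.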
